A study of Rattus norvegicus with 18 samples.

Results

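A group of 10 genes whose products act in pre-mRNA splicing were followed through rat motor cortex after spinal cord injury, namely Rbm39, Rbm25, Srek1, Srek1ip1, Srsf11, Luc7l3, Son, Pnisr, Prpf38b and Srrm4. They were picked by symbol because they were much lower in inj than in Sham libraries at day 7, so their day 7 difference describes how they were chosen and was not tested. These 10 genes were found among the 12560 genes of the day 7 table and among the 31038 genes of the day 30 table, and all 10 had enough reads to enter the tests at both days. The series describes its material as primary neurons enriched from motor cortex, while the sample labels give motor cortex as the tissue. The 18 RNA-seq libraries form 6 groups of 3, which are inj and Sham from males at day 7 and groups named In and S from males and from females at day 30. The labels used here name no strain, age, transgene or drug, do not spell out In and S, and do not say that the libraries of a group came from separate animals. Each p-value therefore measures the spread between libraries, which may be technical. A Sham library named 1-RNA carries the same number as Sham 1, and no source says whether both came from 1 sample.

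Splicing removes introns from pre-mRNA in a complex of small nuclear ribonucleoproteins, the spliceosome, and proteins rich in arginine-serine repeats (SR and SR-related proteins) help it find exons. Many of these proteins gather in nuclear speckles, which are domains of the nucleus that store splicing factors and border active genes. The brain uses an unusually rich set of alternative exons, including very short neuronal microexons. Among the 10 genes, Son encodes a scaffold of nuclear speckles, and Srek1, Srek1ip1, Srsf11 and Pnisr encode SR or SR-related proteins or their partners. Luc7l3 and Rbm25 encode proteins tied to the U1 particle that reads the 5′ splice site, Rbm39 encodes a relative of the U2AF protein that reads the 3′ splice site, Prpf38b encodes a relative of a spliceosome component, and Srrm4 encodes the neuronal activator of microexons. Counts per gene do not separate spliced from intron-retaining transcripts or one isoform from another.

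All 10 genes had a promoter entry in RefSeq (build GRCr8), given as 300 bases of which 250 lie before the transcription start and 50 from it onward. The promoters were searched on both strands for GCCATNTTG, the letters bound by YY1 (the N stands for any base), and for CCGGAAG, bound by ETS family factors, and their matches did not overlap in Pnisr, the promoter that held both. GCCATNTTG was found in 4 of the 10 (Rbm25, Luc7l3, Pnisr and Prpf38b), and in 2.8% of all 33469 promoters. CCGGAAG was found in 4 of the 10 (Srek1, Srek1ip1, Srsf11 and Pnisr), and in 8.75% of all promoters. CCAAT was found in 5 of the 10 against 37.5% of all promoters, and TATAAA in Srrm4 alone among the 10, starting 113 bases before the start, against 14.2%. The 3 windows printed here are those in which GCCATNTTG begins within 25 bases of the transcription start. Their genes had day 7 log2 fold changes of -4.88 (Luc7l3), -2.74 (Pnisr) and -1.78 (Prpf38b, the smallest difference of the 10). The median of the 10 was -3.68. Each window holds 30 bases before the start and 50 from it onward, 5′ to 3′ on the gene's strand, and capitals mark a match to GCCATNTTG or, in Pnisr, to CTTCCGG, which is CCGGAAG read on the other strand.
Luc7l3, chr10:79773380-79773459, minus strand: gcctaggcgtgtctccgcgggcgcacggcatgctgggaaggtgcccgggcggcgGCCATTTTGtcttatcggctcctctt
Pnisr, chr5:40192705-40192784, plus strand: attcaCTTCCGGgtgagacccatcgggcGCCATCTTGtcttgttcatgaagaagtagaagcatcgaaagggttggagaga
Prpf38b, chr2:199250289-199250368, minus strand: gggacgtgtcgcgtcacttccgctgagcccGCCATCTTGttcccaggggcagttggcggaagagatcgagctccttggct
Counted with the start as base 1, the match begins at base 25 in Luc7l3 and at base 1 in Prpf38b, and it begins 2 bases before the start in Pnisr. A match describes the letters only and says nothing of whether a factor is bound there. GC content ran from 44.3% in Pnisr to 70% in Srek1, where the median promoter had 51.7%, and the 10 promoters held 13 to 36 CpG sites against a median of 7.

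The Sham libraries were shallow, with 2683105 to 3014083 counts, against 14650528 to 17013273 in inj and 14532252 to 27849794 at day 30. Values are given as CPM (counts of a gene relative to the library total after TMM scaling), and 3 counts correspond to between 1.09 and 1.23 CPM in Sham and between 0.114 and 0.288 CPM elsewhere. The smallest count of any of the 10 genes was 186 at day 7 and 24 at day 30. The libraries held RNA of cells other than neurons. At day 7 all 5 microglial markers rose (median log2 fold change 2.70), with a summed level of 164 to 244 CPM in Sham and 1244 to 1345 CPM in inj. All 4 endothelial markers tested rose as well (median 3.06), from a sum of 197 to 262 CPM to one of 1619 to 1938 CPM. Of 6 inhibitory neuron markers 5 fell (median -1.05), whereas none of the 6 general neuronal markers passed the test and their median was -0.01. Of 4 excitatory neuron markers 1 rose, and of 5 astrocyte markers 2 rose and 1 fell. Of the 5 oligodendrocyte markers 2 fell, and Mbp, which encodes a myelin protein, took 14.5% and 13.6% of the counts in Sham 1 and Sham 3 but 5.81% in Sham 1-RNA. The part that cell makeup, depth or the library Sham 1-RNA plays in the values below was not tested, except where values without that library are given.

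The 10 genes together took 0.718% of all counts in Sham 1, 0.932% in Sham 3 and 2.13% in Sham 1-RNA (95% Wilson interval 2.11% to 2.15%, counting error only). The 3 inj libraries gave 0.0958%, 0.0917% and 0.104%, so the lowest Sham library lay several fold above the highest inj library, and Sham 1-RNA lay far above the other Sham libraries. Every one of the 10 genes was lower in each inj library than in each Sham library, a pattern that 21.9% of all 11786 tested genes showed in that direction. Over all genes, 34.7% passed edgeR's quasi-likelihood test at an adjusted p (Benjamini-Hochberg) under 0.05, with 15.4% lower and 19.3% higher in inj (1814 and 2276 genes). With library totals in place of TMM factors the split was 957 lower and 3365 higher, 8.12% and 28.6%, and the median over all genes moved to 0.28, so day 7 directions below are relative to the TMM scale. Since this comparison chose the 10, nothing is read from their count. Their log2 fold changes ran from -5.10 in Srek1 to -1.78 in Prpf38b with a median of -3.68, against a median of -0.002 over all genes. In bulk RNA, fewer cells of a type and less RNA per cell cannot be told apart.

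**Figure D1:**
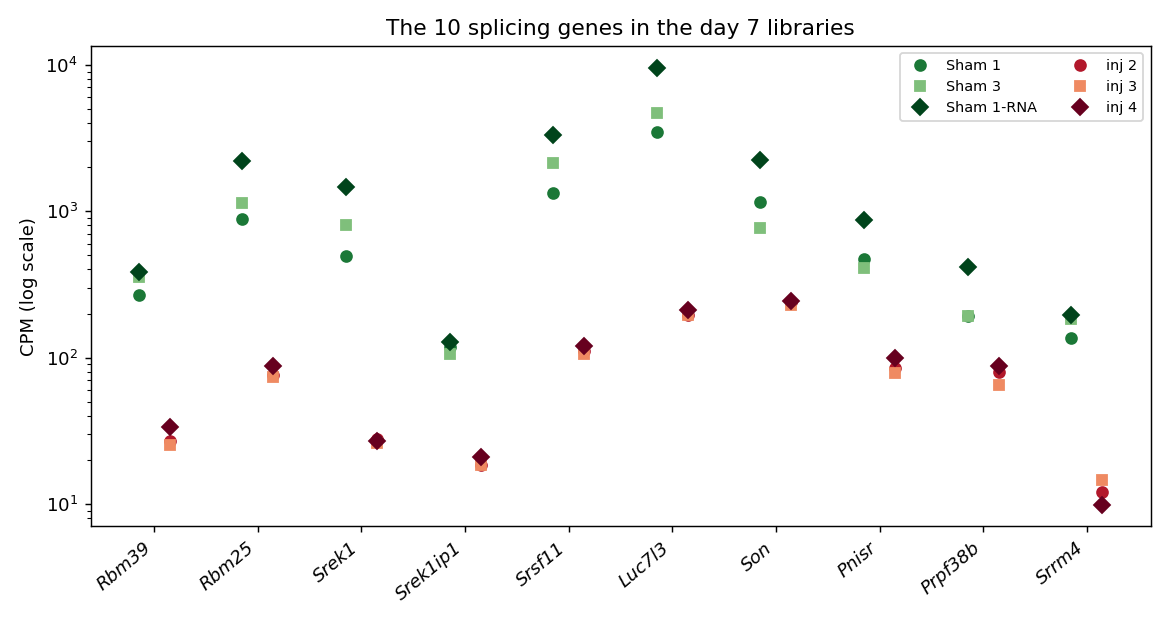
Level of each of the 10 genes in the 6 day 7 libraries, in CPM on a log axis, with 1 symbol per library. Green Sham symbols lie above red inj symbols for every gene, from Luc7l3 (3464 to 9544 CPM in Sham, 194 to 211 in inj) to Srrm4 (136 to 196 in Sham, 9.92 to 14.7 in inj), and the Sham 1-RNA diamond is the top symbol in each.

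Son, the speckle scaffold, stood at 1159 CPM in Sham 1, 767 in Sham 3 and 2229.8 in Sham 1-RNA, and at 239, 228 and 243 CPM in inj 2, inj 3 and inj 4. The inj libraries were close together and the Sham libraries were spread 2.91-fold. The log2 fold change was -2.55 ± 0.34 (SE), a level 5.85-fold lower in inj, and without Sham 1-RNA it was -2.03.

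Srek1 encodes an SR-related protein that works with other SR proteins on splice site choice. Its level was 495, 807 and 1472 CPM in Sham 1, Sham 3 and Sham 1-RNA, and 27.8, 26.0 and 27.0 CPM in the inj libraries. It had the largest day 7 difference of the 10 (log2 fold change -5.10 ± 0.38, 34.3-fold lower, and -4.61 without Sham 1-RNA). The inj libraries were nearly equal at 26.9 ± 0.857 CPM (SD, n = 3), while the Sham values were the most widely spread of the 10, at 2.97-fold. Its binding partner Srek1ip1 differed in this respect, with 118, 106 and 128 CPM in the same Sham libraries and 18.6, 18.6 and 21.1 CPM in inj. This gene had the tightest Sham values of the 10 (117 ± 11.3 CPM, SD, n = 3), so its 6.03-fold lower level (log2 fold change -2.59 ± 0.14) barely moved without Sham 1-RNA, at -2.53.

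Srsf11 encodes an SR-related protein that, in mouse neural cells, acts together with Srrm4 on microexons. It stood at 1342, 2129 and 3328 CPM in Sham 1, Sham 3 and Sham 1-RNA and at 112, 106 and 119.8 CPM in inj, and was 20.1-fold lower in inj (log2 fold change -4.33 ± 0.33). Srrm4 itself, the neuronal microexon activator, stood at 136, 185 and 196 CPM in Sham and at 12.1, 14.7 and 9.92 CPM in inj. The pair thus shared a large day 7 difference, but Srrm4 (log2 fold change -3.82 ± 0.20, 14.1-fold lower) had Sham values within 1.44-fold of each other and Srsf11 had values 2.48-fold apart. Pnisr, which encodes an SR-related speckle protein that binds pinin, stood at 470.0, 412 and 871 CPM in Sham and 84.8, 79.0 and 99.4 CPM in inj. Its level was 6.66-fold lower in inj (log2 fold change -2.74 ± 0.28).

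Luc7l3 is a homolog of the yeast U1 protein Luc7. It stood at 3464, 4709 and 9544 CPM in Sham 1, Sham 3 and Sham 1-RNA and at 194, 195 and 211 CPM in inj, so that the inj values lay close together. The difference was 29.5-fold (log2 fold change -4.88 ± 0.39, and -4.36 without Sham 1-RNA). Rbm25, which regulates alternative 5′ splice sites through the U1 particle, stood at 879.7, 1143 and 2216 CPM in Sham and 76.1, 74.3 and 87.7 CPM in inj, a 17.8-fold difference (log2 fold change -4.15 ± 0.34).

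Rbm39, the U2AF-related protein that is also a coactivator of nuclear receptors, stood at 268, 356 and 387 CPM in Sham and 27.0, 25.5 and 33.6 CPM in inj. It was 11.7-fold lower in inj (log2 fold change -3.55 ± 0.19), and with Srek1ip1 and Srrm4 it had the closest Sham values among the 10. Prpf38b had the smallest difference, with 191, 193 and 416 CPM in Sham and 79.8, 64.9 and 88.2 CPM in inj. Its log2 fold change of -1.78 ± 0.29 became -1.32 without Sham 1-RNA, and the other Sham libraries stood less than 3 times above any inj library.

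Sham 1-RNA exceeded Sham 1 in all 10 genes, by 2.97-fold in Srek1, 2.75-fold in Luc7l3, 2.52-fold in Rbm25, 2.48-fold in Srsf11 and 2.17-fold in Prpf38b. The remaining ratios were 1.92 in Son, 1.85 in Pnisr, 1.45 in Rbm39, 1.44 in Srrm4 and 1.09 in Srek1ip1. Over all 9654 genes compared, the median log2 ratio between these libraries was -0.007, and 0.528% of genes had a ratio as high as that of Srek1. The genes thus ranged from several with more than 2-fold more in Sham 1-RNA to Srek1ip1, whose Sham values lay within 1.21-fold of each other, where the median gene had 1.39-fold. Rbm39 and Srrm4, at 1.45- and 1.44-fold, were close to that median.

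Of the 7 closest relatives of the 10 by name and family, 6 were tested at day 7, and 5 fell, against 15.4% of all genes, with a median log2 fold change of -1.48. On library totals 5 of the 6 fell as well, with a median of -1.21. Like the wider lists below, the relatives were chosen with earlier results of these data known, so these shares are descriptions. Srrm2, which encodes another large speckle scaffold, stood at 812, 1061 and 1610.1 CPM in Sham and 277, 248 and 230.0 CPM in inj (-2.21 ± 0.25). Srrm1, a splicing coactivator, changed by -1.74 ± 0.17, Luc7l by -1.66 ± 0.17, the neuronal Srrm3 by -1.30 ± 0.19 and Luc7l2 by -1.18 ± 0.22. Luc7l2 departed from the pattern within Sham, with its lowest Sham value in 1-RNA (272 CPM, against 482 and 491). Prpf38a, the spliceosome component that gives Prpf38b its name, had a log2 fold change of -0.25 ± 0.17 (adjusted p = 0.278, edgeR's quasi-likelihood test).

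Genes of the wider splicing machinery changed in both directions at day 7. Of 118 tested genes in lists of SR proteins, SR-related proteins, SR protein kinases, core spliceosome proteins, hnRNP proteins and neuronal splicing regulators, 42 fell (35.6%, against 15.4% of all genes) and 9 rose (7.63%, against 19.3%). On library totals the split turned, with 19 lower (16.1%, against 8.12% of all genes) and 23 higher (19.5%, against 28.6%). Their median log2 fold change was -0.33, and the lowest, Ddx46, lay at -2.65 ± 0.23. Under -1.5 lay 7 of the 118, against 3.43% of all genes. Of 24 SR-related proteins 14 fell, the highest share of the 6 lists on the TMM scale. On library totals 7 of the 24 fell (29.2%), and the kinases had the highest share, with 4 of 10 (40%). Among those that fell were Ddx46 (a helicase of U2 binding), Zranb2 (-1.83) and Rsrc1 (-1.64 ± 0.15), and Ccnl1 (1.08 ± 0.33) and Scaf8 (0.60) rose. Of the 12 genes in the SR protein list only Tra2b fell on the TMM scale (-1.0 ± 0.17), from 118 to 180.0 CPM in Sham to 68.1 to 82.3 CPM in inj. Only Srsf6 rose (0.53 ± 0.15), which left a median of -0.13 that became 0.16 on library totals. With another scaling, RLE, 4 of the 12 fell (33.3%, against 16.9% of all genes). Of 10 kinases linked to splicing 4 fell, among them Srpk2 (-1.63 ± 0.16), Prpf4b (-1.54 ± 0.31) and Srpk1 (-1.05), and Clk1 rose (0.91 ± 0.27).

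Of 33 core particle proteins 10 were lower and 3 higher, with a median of -0.04, and on library totals 2 were lower and 9 higher. Prpf6 (-1.01), Snrpb2 (-0.89 ± 0.17) and Sf3b2 (-0.55, not past the test on library totals) fell, whereas Prpf8 (0.82), the large protein at the heart of the spliceosome, Snrnp70 (0.63 ± 0.15) and Sf3b1 (0.41) rose. Among 19 hnRNP genes 8 fell, including Hnrnpr (-0.93 ± 0.14), Hnrnpul2 (-0.79) and Hnrnpu (-0.65, not past the test on library totals), and 2 rose, Hnrnph2 (0.39) and Ptbp1. Ptbp1, the repressor of neuronal exons that neurons normally switch off, rose from 38.7 ± 3.38 CPM (SD, n = 3) in Sham to 84.0 ± 6.51 CPM in inj, a log2 fold change of 1.12 ± 0.14. It rose together with the microglial and endothelial markers given above, and their part in it was not tested. Of the 20 genes in the list of neuronal regulators 5 fell and none rose. Among those that fell were Nova1 (-0.67), Elavl4 (-0.58 ± 0.14) and Qk (-1.52 ± 0.20), which is not particular to neurons, as oligodendrocytes express it. On library totals only 1 of the 20 passed, Qk (-1.22), and neither Nova1 nor Elavl4 did.

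Only 2 of 7 nuclear noncoding RNAs in a further list were tested. Snhg11 fell, with 232, 175 and 179 CPM in Sham and 39.9, 41.4 and 36.3 CPM in inj (-2.32 ± 0.15), and Miat rose from 98.1 ± 17.6 to 137 ± 7.02 CPM (SD, n = 3; log2 fold change 0.48 ± 0.15). Rest, the repressor of neuronal genes whose transcript Srrm4 is known to splice in mouse and human, was looked at after its values were seen and had a log2 fold change of 0.44 ± 0.34 (adjusted p = 0.348, edgeR's quasi-likelihood test).

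**Figure D2:**
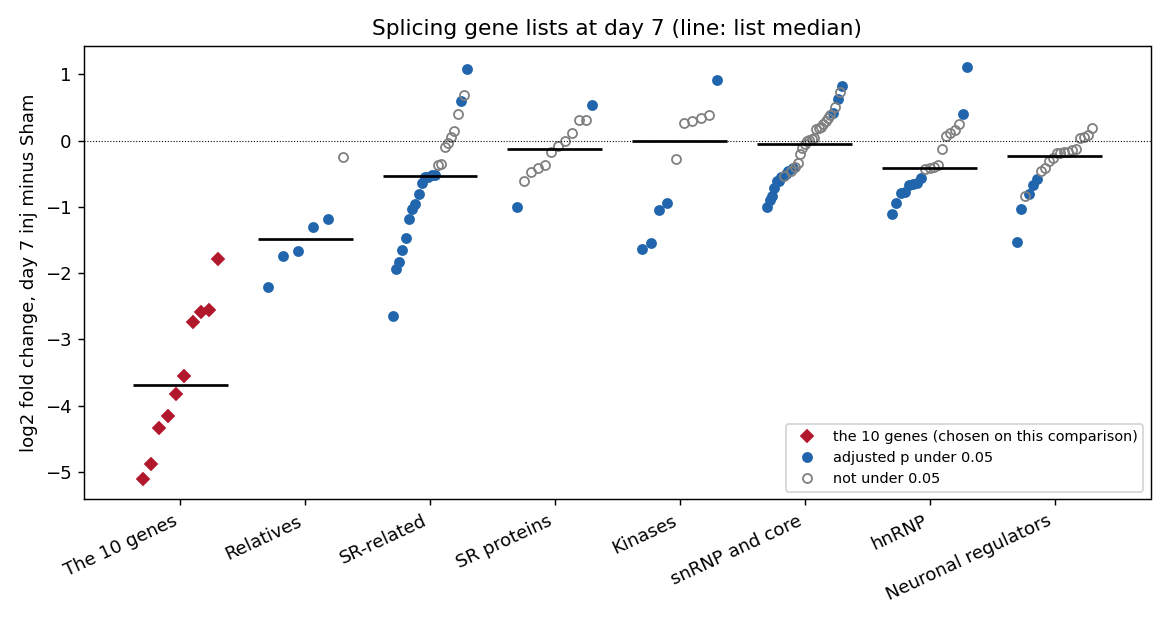
Log2 fold change of each tested gene, day 7 inj minus Sham, in the 10 genes and in 7 lists of splicing genes, with a line at each median. The 10 genes, chosen on this comparison, have a median of -3.68, their relatives one of -1.48, and the other lists lie between -0.53 and -0.01.

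At day 30 the libraries are other libraries than those that chose the genes, so In and S could be tested. None of the 10 genes passed in males or in females. In edgeR's quasi-likelihood test, adjusted after Benjamini and Hochberg, 0 of 15074 genes (0%) passed in males, although 1232 had an unadjusted p under 0.05 and DESeq2 called 2, and 5 genes (0.0332%) passed in females, with 261 under an unadjusted 0.05. Of the 10 genes, 1 in males and 0 in females had an unadjusted p under 0.05. The median log2 fold change of the 10 was -0.04 in males and -0.06 in females, against 0.02 and -0.002 over all genes.

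The lowest end of any male interval was -1.77, in Srek1ip1. The genes were chosen on the day 7 estimates, so nothing is read from setting the day 30 intervals against them. For 7 genes the male interval was narrower than for the rest. The 95% intervals of the log2 fold change ran from -0.43 to 0.18 in Son (estimate -0.12), from -0.28 to 0.41 in Srek1 (0.06), from -0.05 to 0.61 in Srsf11 (0.28) and from -0.43 to 0.27 in Luc7l3 (-0.08). They ran from -0.34 to 0.43 in Rbm25 (0.05) and from -0.42 to 0.34 in both Pnisr and Prpf38b (-0.04 in each). In females the same 7 genes had estimates between -0.18 in Pnisr and 0.02 in Srek1, and the interval reaching furthest down was that of Pnisr, from -0.55 to 0.19. None of these differences passed the test in either sex.

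The other 3 genes had wider intervals, at day 30 levels of a few CPM. Rbm39 had a male log2 fold change of 0.39 with an interval from -0.53 to 1.32 and a female one of -0.03 from -0.97 to 0.91. Srek1ip1 lay at -0.80 in males, from -1.77 to 0.17, and at 0.45 in females, from -0.53 to 1.43. Srrm4 came closest to a difference. In male In 1, In 2 and In 3 it stood at 3.80, 4.18 and 2.82 CPM, and in male S 1, S 2 and S 4 at 5.76, 4.71 and 9.14 CPM, so the groups did not overlap, as was so in this direction for 5.17% of all genes. Its log2 fold change was -0.85 ± 0.34 (interval -1.56 to -0.14), lower in 3 of 3 In libraries, with an unadjusted p of 0.022 and an adjusted p of 0.599 by edgeR's quasi-likelihood test. In females all 10 genes overlapped between In and S (3.81% of all genes were lower without overlap), and Srrm4 did so with 3.06, 5.82 and 5.45 CPM in In and 6.0, 6.91 and 4.66 CPM in S (-0.29, from -0.96 to 0.38).

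Whether the In minus S difference itself differed between the sexes was tested as an interaction, and 0 of the 10 genes and 0 of 15074 genes passed in edgeR, with 619 under an unadjusted p of 0.05 and 6 called by DESeq2. The interaction was 1.25 ± 0.65 in Srek1ip1 (adjusted p = 0.940, edgeR's quasi-likelihood test) and 0.56 ± 0.46 in Srrm4. None of the 125 tested genes of the wider splicing lists passed in either sex.

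**Figure D3:**
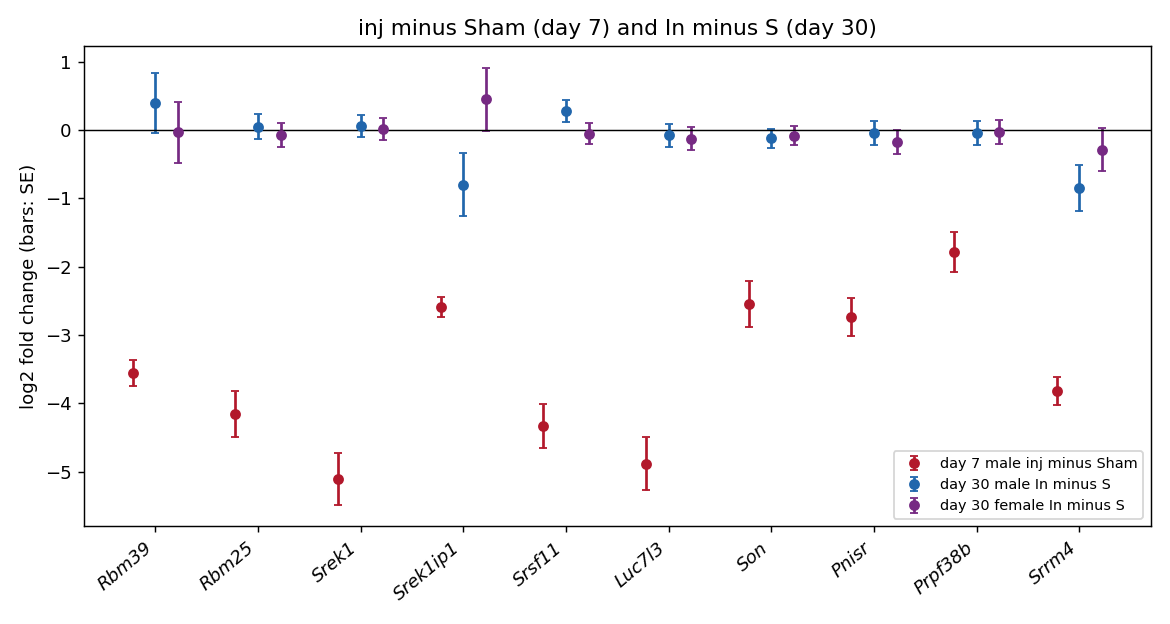
Log2 fold change with its SE for each of the 10 genes, for inj minus Sham at day 7 (red) and for In minus S at day 30 in males (blue) and females (purple). Red points, on which the genes were chosen, lie between -5.10 and -1.78, and blue and purple points lie between -0.85 and 0.45.

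The tables of the 2 days were made separately, so levels cannot be tested between days, but they can be set side by side as CPM computed over the 12397 genes that both tables list, without TMM factors. On that scale the 10 genes summed to between 7269 and 21561 in Sham, between 929 and 1053 in day 7 inj, and between 502 and 747 in all 12 day 30 libraries. The day 30 S libraries, like the In libraries, thus had sums under those of the inj libraries and far under those of Sham. For Luc7l3 the values were 2955 to 9898 in Sham, 216 to 236 in inj, 121 to 161 in male S and 107 to 141 in female S. For Srek1 they were 422 to 1527 in Sham, 29.1 to 30.9 in inj, 33.4 to 36.0 in male S and 38.2 to 51.2 in female S. Srrm4 gave 116 to 204 in Sham, 11.1 to 16.4 in inj and 8.81 to 16.9 in male S. Rbm39 had 28.5 to 37.5 in inj but 3.27 to 6.83 in male S, and Srek1ip1 had 20.7 to 23.6 in inj but 5.25 to 17.6 in male S, so these genes lay below the inj level at day 30. The Sham libraries are therefore the 3 in which the 10 genes stand apart from the other 15, and they are also the 3 shallow ones. Between Sham and inj, both of day 7, depth and condition cannot be told apart. Between Sham and the day 30 libraries, depth, day and condition cannot be told apart.

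Between the sexes 2 of the 10 genes passed the test at day 30 in S, Son and Srek1ip1, where 2.97% of all genes passed, and 2 passed in In, Son and Rbm39, where 12.7% did. Whether male and female libraries were prepared together is not in the labels, and the sexes also differed in make-up. Mitochondrially encoded genes took 53.7% to 60.3% of counts in males and 27.1% to 37.5% in females, reads not uniquely aligned took 17.4% to 40.6% in males and 16.4% to 19.5% in females, and TMM factors were 0.676 to 0.842 in males and 1.19 to 1.52 in females. Of 5 microglial markers 2 were higher in females in both groups, Cx3cr1 (1.98 in S and 1.47 in In) and Csf1r (1.11 and 0.64), as was 1 of 4 endothelial markers, Flt1 (0.86 and 0.74). Of 5 astrocyte markers 1 was lower, Gfap (-1.28 and -1.26). No other marker of these lists passed, and the others differed in sign. The microglial P2ry12 lay at 0.56 in S and 0.10 in In, but C1qa at -0.17 and -0.71. The endothelial Cldn5 lay at -0.09 and -0.33, and the astrocyte Gja1 at 0.97 and -0.04. The part of these markers in the values below was not tested. Sex and preparation cannot be told apart. Library totals in place of TMM factors raised the median female minus male difference over all genes to 0.88 in S and to 0.94 in In, so differences given here are relative to the TMM scale. On library totals 7 of the 10 genes were called higher in females in each group and none lower, where 59.5% of all genes were called higher in S and 59.1% in In.

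Son was higher in females. It stood at 50.9, 65.5 and 59.4 CPM in male S, 57.3, 52.7 and 51.3 in male In, 99.5, 80.4 and 91.3 in female S and 80.8, 91.0 and 84.0 in female In, so the sexes did not overlap, as was so in this direction for 15.2% of all genes in S and 17.6% in In. The female minus male difference was 0.63 ± 0.14 on the log2 scale in S (adjusted p = 0.0295) and 0.67 ± 0.14 in In (adjusted p = 0.00801, both by edgeR's quasi-likelihood test), higher in 3 of 3 female libraries of each group. The In call held in all 20 alternatives, and that in S in 14 of 20. It was lost without female S 1, S 2 or S 3 (adjusted p = 0.153, 0.0543 and 0.0849), without male S 1 or S 4 (0.0773 and 0.107) and with a replicate block (0.174), all in edgeR's quasi-likelihood test, while the log2 difference stayed between 0.54 and 0.71 in these 6 settings. In S 1.7% of all genes were higher and 1.27% lower in females, and in In 6.1% and 6.59%.

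Rbm39 and Srek1ip1 were lower in females, each past the test in 1 group. Rbm39 stood at 5.89, 3.03 and 2.64 CPM in male In and at 1.20, 1.15 and 1.29 CPM in female In, a log2 difference of -1.66 ± 0.45 (adjusted p = 0.0242, edgeR's quasi-likelihood test). Without male In 1, the highest library, the difference was -1.22 and no longer passed (adjusted p = 0.117, edgeR's quasi-likelihood test). In S it stood at 1.62, 3.65 and 3.62 CPM in males and 1.28, 1.29 and 1.15 CPM in females, with no overlap (11.9% of all genes were lower without overlap there), and the difference of -1.23 ± 0.45 did not pass (adjusted p = 0.144, edgeR's quasi-likelihood test). Srek1ip1 was lower in female S, with 1.23, 1.25 and 2.05 CPM against 2.60, 9.42 and 4.95 CPM in male S (-1.88 ± 0.47, adjusted p = 0.0408, edgeR's quasi-likelihood test). In the In group the Srek1ip1 values were 2.15, 2.57 and 1.48 CPM in females and 4.47, 2.81 and 2.36 CPM in males and overlapped (-0.63 ± 0.46). The Rbm39 call in In held in 14 of 20 alternatives and was also lost without any 1 of the female In libraries (adjusted p = 0.0513, 0.0974 and 0.0752), with library totals (0.183) and in a fit to In alone (0.0591), by edgeR's quasi-likelihood test. The Srek1ip1 call held in 10 of 20, and without male S 2, its highest library, the difference was -1.29 (adjusted p = 0.172 by the same quasi-likelihood test).

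Luc7l3 stood at 60.2, 86.0 and 79.4 CPM in male S, 83.8, 61.5 and 68.2 in male In, 62.8, 48.6 and 54.5 in female S and 51.0, 48.7 and 52.0 in female In. The sexes overlapped in S and not in In, and neither difference passed (-0.44 ± 0.17, adjusted p = 0.158, and -0.49 ± 0.17, adjusted p = 0.0639, edgeR's quasi-likelihood test). On library totals both differences of Luc7l3 change sign, to 0.44 (adjusted p = 0.0479) and 0.42 (adjusted p = 0.0560, edgeR's quasi-likelihood test). In In the Luc7l3 difference passed in DESeq2 (-0.51, adjusted p = 0.0333) and, in edgeR, without male In 2 (-0.58, adjusted p = 0.0496). Across the 12 day 30 libraries Rbm25 ran from 14.7 to 21.5 CPM, Srek1 from 16.2 to 22.8, Srsf11 from 32.9 to 50.6, Pnisr from 26.5 to 46.7 and Prpf38b from 22.9 to 34.2. In In, Srek1 of females lay above that of males and Srsf11 below without overlap, in which direction 17.6% and 15.5% of all genes did not overlap, and neither passed the test.

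In the wider splicing lists, 2 of 125 genes were higher in female S, Prpf8 (1.02 ± 0.16) and Snrnp200 (0.62 ± 0.14). This was 1.6%, against 1.7% of all genes, and none was lower, against 1.27% of all genes. In In 8 were higher (6.4%) and 7 lower (5.6%), near the shares of all genes. Prpf8 (1.24 ± 0.16), Cdk12 (1.30 ± 0.25), a kinase that acts on transcription of long genes, and Rbfox2 (0.93 ± 0.28), a neuronal exon regulator, were higher. Snrpd2 (-1.22 ± 0.24) and Sf3b5 (-1.08 ± 0.20), small proteins of the core particles, and the kinase Clk1 (-0.68 ± 0.19) were lower, and on library totals none of these 3 passed and Clk1 turned to 0.22.

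**Figure D4:**
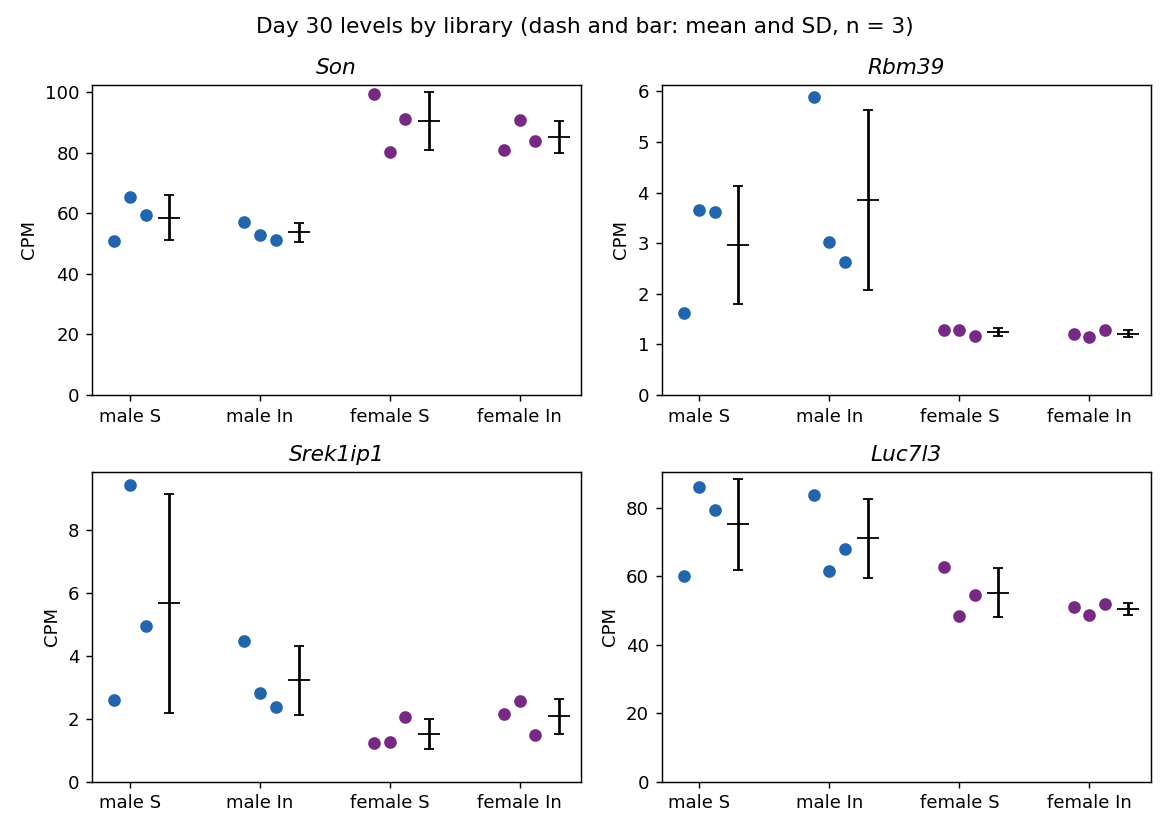
Level in CPM of Son, Rbm39, Srek1ip1 and Luc7l3 in each day 30 library, with the mean and SD of each group of 3 beside the points. Son is at 80.4 CPM or more in every female library and at 65.5 or less in every male one, and the other 3 have lower female means, with Rbm39 of male In 1 at 5.89 CPM and Srek1ip1 of male S 2 at 9.42 CPM above the rest.

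Within the day 30 groups the 10 genes did not move as 1 block. After each group's mean was taken from log2 CPM, Pearson's r was computed for the 45 pairs over 12 libraries, and 22 were positive and 23 negative with a median of -0.0009. These correlations are descriptions over libraries that share depth and preparation. Luc7l3 and Son (0.83) and Rbm39 and Luc7l3 (0.82) varied together most, and Srek1ip1 joined them with r of 0.73 to Son, 0.70 to Rbm39 and 0.64 to Luc7l3. Rbm25 varied with Srsf11 (0.73) and with Prpf38b (0.71). The most negative pairs were Rbm39 with Srsf11 (-0.89) and with Rbm25 (-0.80), whereas Prpf38b had r of -0.36 with Rbm39 and between -0.09 and 0.11 with Luc7l3, Son and Srek1ip1. With male In 1 and male S 2 left out after centring, Luc7l3 with Son, Rbm39 with Luc7l3 and Rbm39 with Srsf11 had r of 0.77, 0.71 and -0.91. Srek1ip1 had lower r, 0.57 with Son, 0.55 with Rbm39 and 0.40 with Luc7l3. The group means still included male In 1 and male S 2, so these values cannot show what r would be without those libraries. The values of r were not alike in both sexes. Rbm39 had r of 0.93 with Luc7l3, 0.90 with Son, 0.87 with Srek1ip1 and -0.91 with Rbm25 over the 6 male libraries, against 0.15, -0.32, -1.0 and 0.35 over the 6 female ones. In females, however, Rbm39 had only 24 to 34 counts per library, and its centred values ran only from -0.09 to 0.08. The part of counting error in its female r was not tested, so no difference between the sexes is read from it. Luc7l3 with Son kept its sign in both sexes, at 0.91 in males and 0.73 in females. Srek1ip1 had r of 0.89 with Luc7l3 and 0.99 with Son in males, against -0.22 and 0.23 in females, where it too had few counts.

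**Figure D5:**
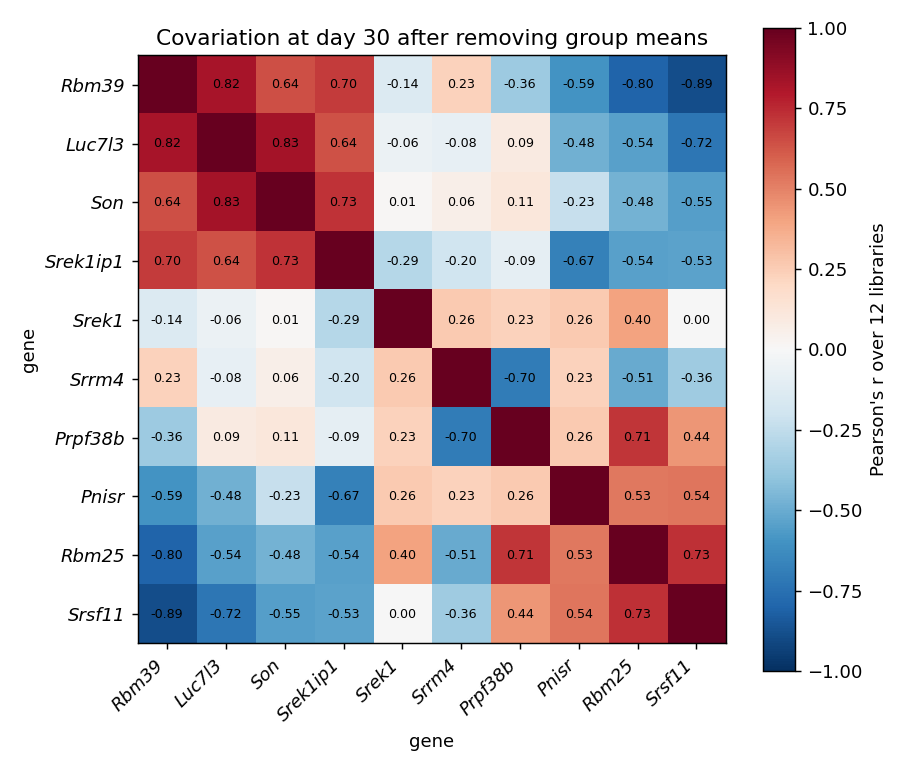
Pearson's r between the 10 genes over the 12 day 30 libraries after removal of group means, in colour and numbers. Rbm39, Luc7l3, Son and Srek1ip1 form a block of positive r from 0.64 to 0.83, and Rbm39 runs to -0.89 against Srsf11. Over the female libraries alone, not drawn here, r within that block ran from -1.0 to 0.73.

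Among the genes whose centred day 30 levels were most like the mean of the 10 were Gss (r = 0.953), Frmd4a (0.926) and Slit3 (0.916), over 12 libraries. That mean moved only between -0.15 and 0.12 on the log2 scale, so the likeness is to a nearly flat profile. RefSeq lists copies or pseudogenes named after 5 of the 10 genes (Luc7l3-ps1, Luc7l3-ps2, Rbm25l1, Son-ps1, Srek1-ps1 and Srek1ip1-ps1), and no source used here says how the authors' counting divided reads between such copies. The counts of Luc7l3, Rbm25, Son, Srek1 and Srek1ip1 are uncertain to that extent, as is overlap with genes on the other strand. The copy Rbm25l1 had reads of its own at day 30, at a group mean of 5.31 to 7.89 CPM.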

How the data were processed

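RNA-seq libraries of rat motor cortex were made from polyA RNA by a sequencing company, per the labels' protocols. Per the submitters' processing notes, HISAT2, edgeR and the rat build rn6 were used, with no versions given. The authors deposited raw read counts for each gene symbol, and each day has its own table. The day 7 table was filtered before deposit by a rule not given in the sources used here. The day 30 table lists 31038 genes, 9706 of them without a read, and unnamed or summary lines were left out. The test was that of edgeR 4.0.16 under R 4.3.3 (filterByExpr, TMM, robust quasi-likelihood F test, Benjamini-Hochberg adjustment over all genes tested, threshold 0.05). The day 7 libraries were fitted together and so were the 12 day 30 libraries. CPM and log2 CPM (prior count 2) use TMM factors. The depth is the total count per library, and intervals on shares cover counting error only. The alternatives were DESeq2 1.42.0, limma-voom 3.58.1, other scalings and filters, each library left out, a replicate block, the compared groups alone, and Sham 1 and Sham 1-RNA summed. The latter pair differed by more than sampling noise and was kept apart. Every pair of libraries within a group did so, and this cannot show whether both came from 1 sample. The chi-square statistic per gene was 31.8 for Sham 1 with Sham 1-RNA, 28.8 for Sham 3 with Sham 1-RNA and 3.27 for Sham 1 with Sham 3.

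The 10 genes and all gene lists were chosen with earlier results of these data known. Named list genes are up to 3 that rose and 3 that fell per list with the smallest adjusted p, all relatives and all nuclear RNAs, and Rest and single markers were added after their values were seen. Likeness is Pearson's r with the mean of the 10 over group-centred log2 CPM, and not every gene it picks is reported here. Tests were tested on simulated data with known changes. Promoter sequences are from RefSeq (GRCr8), and no coordinates of the files' build were used. Plots used Python 3.11.15 and matplotlib 3.10.9.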

Additional observations from a re-analysis of the deposited data

How the results depend on the processing

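At day 7 the count of changed genes stayed within 1.5 times of 4090 in all 13 alternatives, but its split moved with library totals from 1814 lower and 2276 higher to 957 and 3365. No paired analysis was possible because the day 7 groups share only the number 3. At day 30 no alternative called any of the 10 genes between In and S. The number of genes called in females was 33 with DESeq2, 0 with limma-voom or with the compared groups alone, 10 without a filter, 10 with a replicate block within the sex and 0 to 24 with a library left out (24 without female In 1). In males it was 2 with DESeq2 and 0 to 1 with a library left out, and for the interaction 6 with DESeq2. After removal of group means, same-numbered In and S libraries correlated over genes at 0.0486, 0.129 and 0.0503 in females and at 0.0747 and 0.00395 in males. With so few pairs these values cannot show whether such libraries were prepared together, and the labels give only the shared number. For females against males in S, 447 genes became 1038 with DESeq2, 953 with limma-voom, 8998 with library totals, 946 with S alone, 21 with a replicate block over all groups and 66 to 1270 with a library left out (66, 116 and 162 without female S 1, S 2 and S 3, 159 and 68 without male S 2 and S 4, and 1270 without male In 1). In In, 1913 became 8969 with library totals, 668 with In alone and 578 to 1908 with a library left out (578 and 821 without female In 2 and In 3). The cause was not tested.

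Some differences of the 10 genes changed sign, none of them past the test as first computed. In males these were Rbm25 with the block (-0.17) and Pnisr and Prpf38b with limma-voom (0.052 and 0.071), and in females Rbm39 with library totals (0.0081). In S the sex difference changed sign with the block in Rbm25 (-0.056), Srsf11 (-0.041) and Srrm4 (0.18) and with library totals in Luc7l3 (0.44), Prpf38b (0.75) and Srrm4 (0.71). In In it did so with library totals in Rbm25 (0.82), Srek1ip1 (0.26), Srsf11 (0.62), Luc7l3 (0.42) and Prpf38b (0.81). With a library left out, male In minus S ran from -0.038 to 0.60 in Rbm39, -0.055 to 0.20 in Rbm25, -0.0014 to 0.16 in Srek1, -0.22 to 0.027 in Luc7l3, -0.19 to 0.13 in Pnisr and -0.19 to 0.086 in Prpf38b. Female In minus S ran from -0.080 to 0.0065 in Rbm39, -0.078 to 0.086 in Srek1, -0.097 to 0.018 in Srsf11 and -0.10 to 0.096 in Prpf38b. The sex difference in S ran from -0.046 to 0.16 in Rbm25, -0.051 to 0.23 in Srsf11, -0.25 to 0.022 in Prpf38b and -0.33 to 0.16 in Srrm4, and that in In from -0.22 to 0.029 in Rbm25 and -0.18 to 0.029 in Prpf38b. The genes of a few CPM at day 30 (Rbm39, Srek1ip1, Srrm4) had the widest intervals, and what depth contributes was not tested.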
